A study of Paxillus involutus with 12 samples.

Results

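The 144 array sequences described here are transcripts of the fungus Paxillus involutus that gave a strong signal and kept nearly the same level through carbon starvation. They were chosen by their own measured values: a mean log2 expression value over all 12 arrays from 12 to 14, and a highest value less than 0.3 log2 units (1.23-fold) above the lowest. They are 144 of the 12214 sequences on the array (1.18%), and 144 of the 3871 whose mean lay in that window (3.72%). Because the choice used the level and the range on every array, the levels, ranges and day differences of these sequences are a description and carry no test.

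Paxillus involutus is a basidiomycete that forms ectomycorrhizas, a symbiosis in which the fungus takes sugars from tree roots and returns nitrogen and other nutrients. The labelled strain ATCC 200175 was grown without a plant, on glass beads under a minimal medium whose nitrogen source was ammonium at a C/N ratio of 3. A pre-culture of 10 days and 1 day of nitrogen starvation preceded this in every group. Mycelium was harvested at days 2, 6, 8 and 13 of carbon starvation, with 3 biological replicates per day, each a pool of 2 cultures hybridised to its own subarray of a 12-plex NimbleGen chip with a single dye. All 4 groups share the strain, the medium and the pre-culture, and no culture supplied with carbon at the same ages is among the samples, so starvation and culture age cannot be told apart.

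When a fungus runs out of carbon it slows growth and can break down its own cytoplasm by autophagy, and many transcripts change. Transcripts that keep their level through such a change are of practical use: quantitative PCR measures a target against 1 or more reference transcripts, and a reference that itself moves shifts every ratio made with it. Genes for the cytoskeleton, for translation and for central metabolism are the customary candidates in fungi, but their stability differs between treatments and has to be measured each time. The deposited files give a number and no gene name for each sequence, and none of the 12214 numbers matched a locus tag or accession among the 18033 genes of the reference table, so 0 of 10 customary reference genes (actin, tubulins, glyceraldehyde-3-phosphate dehydrogenase, elongation factor 1-alpha and others) could be looked up. For the same reason the labelled tissue, mycelium, could not be checked against marker genes, and no role is given to any sequence below.

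Array medians lay between 11.35 and 11.38, and the random-sequence control feature, a measure of background, between 4.49 and 4.70. All 144 members lay at least 7.21 and at most 9.54 log2 units above the control of the same array, and each was summarised from 10 probe pairs. The descriptions of the day 6 and day 8 samples carry 2 position numbers that disagree. The titles were followed, and the choice of members, which does not use the day, is the same if these days are exchanged. The 3 arrays of each day sit side by side on the chip, so position and day cannot be told apart. Values were brought to a common distribution before deposit, so a stable value means a stable level relative to the other sequences of the array. A change in total messenger RNA would not show. In a bulk extract, fewer cells of a kind and less RNA per cell cannot be told apart.

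From a mean of 10 upwards, flat profiles were more frequent the brighter the sequences were. Of all 12214 sequences, 254 (2.08%) had a range below 0.3, of which 74 had a mean below 12 and 36 a mean above 14. The share with so small a range was 0.747% for means from 10 to 11, 1.30% from 11 to 12, 3.07% from 12 to 13, 5.08% from 13 to 14 and 12.4% from 14 to 15. The median range over the same steps was 0.966, 0.853, 0.781, 0.712 and 0.563 log2 units, so over these levels the spread was smaller for brighter sequences.

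**Figure D1:**
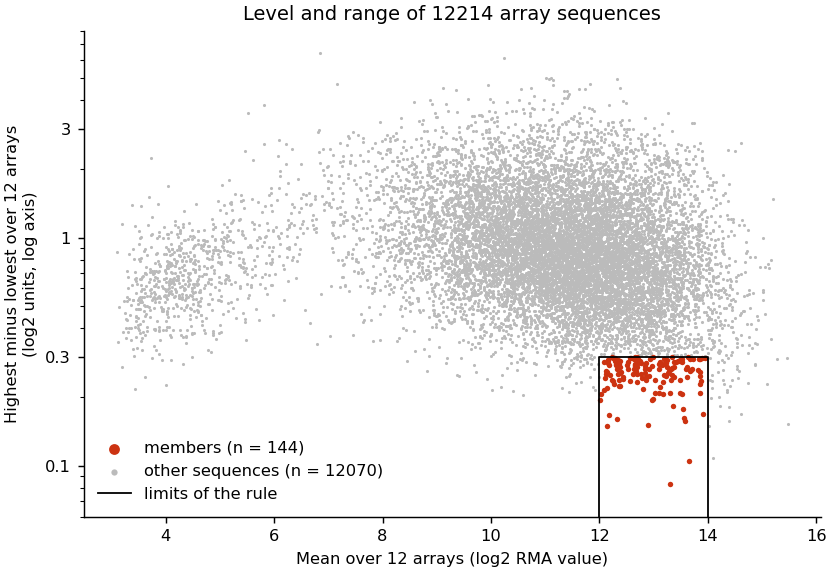
Each point is 1 of 12214 array sequences, placed by its mean over 12 arrays (log2 RMA value, x axis) and by its highest minus lowest value (log2 units, log y axis). The 144 members, in red, fill the box of the rule mostly near its upper edge, and 2 of them lie well below the others, at 0.083 and 0.106.

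The members spread over the whole window of levels. Their means ran from 12.00 to 13.95 with a median of 12.88, and 40 lay from 12 to 12.5, 40 from 12.5 to 13, 36 from 13 to 13.5 and 28 above that. By rank on a single array, the brightest member reached place 268 of 12214 and the dimmest fell to place 4566. A member moved by a median of 530 places between its best and its worst array, with a smallest movement of 144 and a largest of 967 places. Sequences of the same window with a range of 0.3 or more moved by a median of 1720 places, a gap that follows from the range limit.

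Most members sat close to the limit of the rule. Their ranges had a median of 0.265 log2 units, which is a 1.20-fold difference between the highest and the lowest array. Only 54 had a range below 0.25, 14 below 0.2, 2 below 0.15 and 1 below 0.1. On the linear scale, the coefficient of variation over the 12 arrays had a median of 5.80% and lay between 1.76% and 7.61%. The other 3727 sequences of the window had a median of 17.4%, and this gap too follows from the range limit.

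The flattest sequence on the array was paxillus_5305, with a mean of 13.30 and a range of 0.083 log2 units (1.06-fold). Its values were 13.30, 13.34 and 13.30 on the day 2 arrays, 13.30, 13.26 and 13.27 on those of day 6, 13.28, 13.33 and 13.29 on those of day 8, and 13.34, 13.29 and 13.30 on those of day 13. The 4 days overlapped, and the day means lay within 0.036 of each other, lowest at day 6 with 13.28 ± 0.024 and highest at day 2 with 13.31 ± 0.021 (SD, n = 3). Its SD over the 12 arrays was 0.025 and its coefficient of variation 1.76%. The day 13 against day 2 difference was -0.0002 ± 0.059 (SE of the fit), with a 95% interval from -0.13 to 0.13. That SE draws on the spread of all sequences as well, while the SDs of this sequence within days were only 0.021 to 0.025. The width of the interval is thus a limit of the fit and not of these arrays alone.

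Next came paxillus_9375, brighter at 13.65, with a range of 0.106. Its values were 13.70, 13.68 and 13.67 on the day 2 arrays, 13.66, 13.62 and 13.66 on those of day 6, 13.70, 13.60 and 13.65 on those of day 8, and 13.62, 13.62 and 13.65 on those of day 13. The highest and the lowest value both fell on day 8, whose SD of 0.053 was the widest of the 4 days. The coefficient of variation was 2.24%. The third smallest range among the members was 0.150.

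The other 8 of the 10 smallest ranges lay between 0.150 and 0.177, and they differed in how that small spread was arranged. In paxillus_3308 (mean 12.90) and paxillus_9778 (mean 13.58), 90.6% and 87.3% of the variance over the arrays lay between replicates of the same day. The day means of these sequences spanned 0.040 and 0.045. Shares of variance, here and below, are shares of the sum of squares about the mean of a sequence. In paxillus_891 (mean 12.17) only 21.8% lay within days. Its values were 12.09, 12.11 and 12.07 on the day 2 arrays, 12.19, 12.19 and 12.09 on those of day 6, 12.22, 12.20 and 12.24 on those of day 8, and 12.20, 12.24 and 12.19 on those of day 13. All 3 arrays of day 13, and all 3 of day 8, were above the 3 of day 2, by a difference of day means of 0.12 ± 0.061 for day 13 and 0.13 ± 0.061 for day 8 (SE of the fit).

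paxillus_9523, the dimmest of the 10 at 12.14, also lay lowest at day 2. Its day means were 12.08 ± 0.022 at day 2 and 12.19 ± 0.022 at day 6, then 12.14 ± 0.058 at day 8 and 12.16 ± 0.056 at day 13 (SD, n = 3). The day 6 and day 2 arrays did not overlap, while day 8 and day 13 overlapped with both. paxillus_7325 (mean 12.33) had its highest day mean at day 8, 12.40 ± 0.012, and its lowest at day 13, 12.28 ± 0.047. The 3 arrays of day 8 lay above every array of days 6 and 13.

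paxillus_6829 (mean 13.55) showed how unequal the replicate spread could be. Its day 2 arrays read 13.48, 13.47 and 13.48, with an SD of 0.0054, whereas the day 6 arrays read 13.47, 13.58 and 13.64, with an SD of 0.085. The remaining pair, paxillus_1613 (mean 13.57) and paxillus_5360 (mean 13.91), had ranges of 0.162 and 0.168 and day means within 0.078 and 0.086 of each other. The mean log2 level of the 10 sequences together was 13.087 ± 0.0085 at day 2 and 13.115 ± 0.014 at day 6, then 13.122 ± 0.013 at day 8 and 13.115 ± 0.012 at day 13 (SD, n = 3). Over the 12 arrays this joint level ran from 13.08 to 13.13, a range of 0.051.

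**Figure D2:**
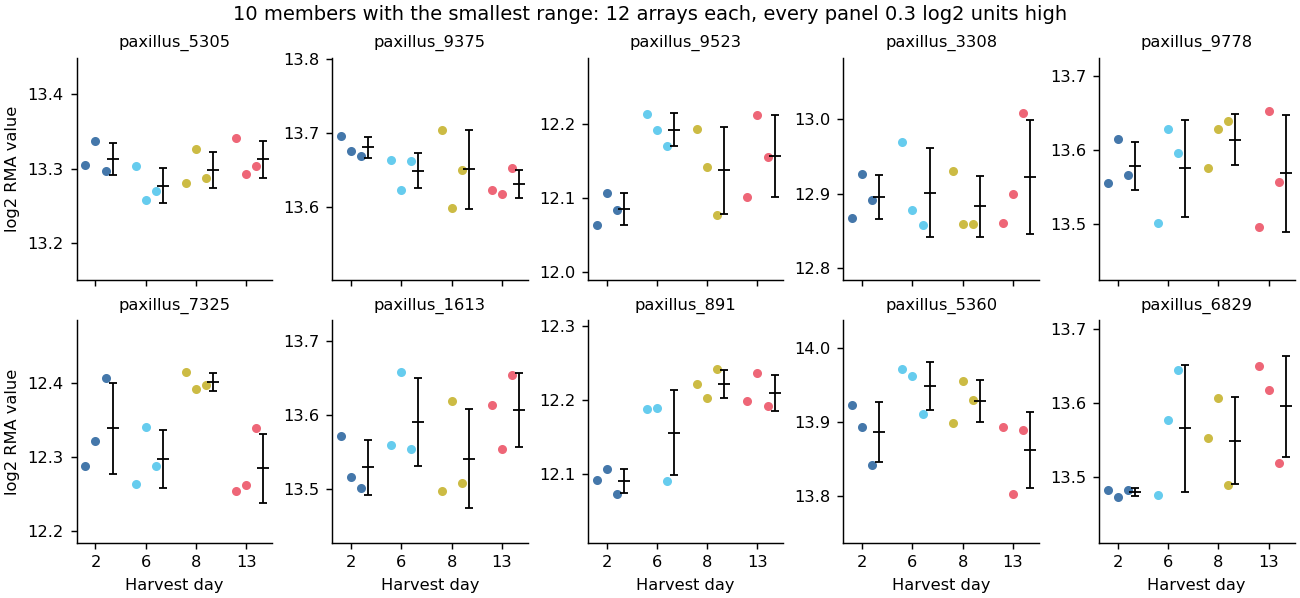
The log2 RMA value (y axis) of the 10 members with the smallest range is shown on each array, with points by harvest day (x axis) and the mean ± SD of 3 arrays beside them; every panel spans 0.3 log2 units. Day means differ by 0.036 in paxillus_5305, the first panel, and day 2 has the lowest mean in paxillus_9523, paxillus_1613, paxillus_891 and paxillus_6829.

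The edges of the rule are close to sequences that it leaves out. Just inside the range limit were paxillus_6805 (mean 12.70) and paxillus_788 (mean 13.35), both with 0.2991, as had paxillus_5053 (mean 12.66), named after its values were seen. Just outside were paxillus_8044 (mean 13.50) with 0.3003 and paxillus_7076 (mean 12.86) with 0.303. At the lower bound of the mean, paxillus_1703 with a mean of 12.004 was included and paxillus_99 with 11.995 was not. At the upper bound, paxillus_6777 with 13.953 was included, and paxillus_1477 with 14.025 and a range of only 0.150 was not.

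The same range stood for different profiles in paxillus_6805 and paxillus_788. paxillus_6805 read 12.81, 12.84 and 12.74 on the day 2 arrays, 12.54, 12.59 and 12.55 on those of day 6, 12.73, 12.63 and 12.66 on those of day 8, and 12.78, 12.74 and 12.79 on those of day 13. Its day 6 arrays were below all others, and 11.0% of its variance lay within days. paxillus_788 read 13.29, 13.46 and 13.38 on the day 2 arrays, 13.37, 13.41 and 13.37 on those of day 6, 13.31, 13.39 and 13.36 on those of day 8, and 13.38, 13.30 and 13.16 on those of day 13. Its range came from 1 high array of day 2 and 1 low array of day 13, and 68.5% of its variance lay within days.

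Over all members, 43.6% of the variance lay between replicates of the same day (median). The share was 11.8% for the other sequences of the window and 15.9% for all sequences. The rule bounds the differences between days, so a larger share within days is favoured by the choice and nothing is read from the gap. In 59 members the share within days was over 50%, and in 85 it was 50% or less. Most degrees of freedom (8) lie within days, so replicate scatter alone would give a share well over 50%. The value of 50% therefore does not divide replicate scatter from differences between days. The lowest shares belonged to paxillus_4852 and paxillus_5393, with 7.3% and 10.4%, and the highest to paxillus_7084 and paxillus_6841, with 98.2% and 96.0%.

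paxillus_4852 (mean 12.39) read 12.39, 12.44 and 12.35 on the day 2 arrays, 12.41, 12.45 and 12.44 on those of day 6, 12.24, 12.27 and 12.21 on those of day 8, and 12.49, 12.47 and 12.48 on those of day 13. Its day 8 arrays lay below all others, and day 13 above all others. The difference between day 13 and day 8 was 0.24 ± 0.061 (SE). paxillus_5393 (mean 13.73) read 13.87, 13.84 and 13.83 on the day 2 arrays, 13.72, 13.81 and 13.79 on those of day 6, 13.60, 13.58 and 13.68 on those of day 8, and 13.66, 13.62 and 13.68 on those of day 13, with day 2 above all others and days 8 and 13 overlapping at the low end. The day means of paxillus_7084 (mean 12.64), by contrast, spanned only 0.025, with the lowest, 12.62 ± 0.10, at day 2 and the highest, 12.65 ± 0.0088, at day 8 (SD, n = 3), while its day 13 arrays read 12.65, 12.75 and 12.49. paxillus_6841 (mean 12.32) stood out on replicate 2 of days 2 and 13, at 12.50 and 12.49, against 12.23 to 12.27 on the other replicates of these days.

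Replicate spread among members was largest at the last harvest and smallest at day 8. The median SD over 3 replicates was 0.056 for day 2, 0.055 for day 6, 0.044 for day 8 and 0.063 for day 13. The other 3727 sequences of the window gave 0.102, 0.0684, 0.0679 and 0.112 at these days. The range limit also bounds the replicate SDs of members, so their smaller values follow from the choice. The highest single value of a member fell on day 2 in 52 members, on day 6 in 16, on day 8 in 36 and on day 13 in 40, and the lowest on day 2 in 41, on day 6 in 29, on day 8 in 27 and on day 13 in 47. In 42 members both extremes lay on days 2 or 13, in 6 both lay on days 6 or 8, and in 9 both lay on the same day. Extremes were not counted by day for the other sequences, so these counts are not read as a trait of the members.

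Because a sequence moved by a deviating array could not become a member, the deviations of members on each array are small by the choice and do not judge the arrays. The median deviation of the 144 members from their own means was between -0.012, on replicate 3 of day 13, and 0.022, on replicate 2 of day 2. The quartiles of these deviations were 0.095 to 0.144 log2 units apart. The mean log2 level of all members together was 12.934 ± 0.010 at day 2 and 12.921 ± 0.0070 at day 6, then 12.935 ± 0.011 at day 8 and 12.922 ± 0.0093 at day 13 (SD, n = 3), with a range of 0.035 over the arrays. Since members were chosen to be flat, a flat mean follows from the choice.

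**Figure D3:**
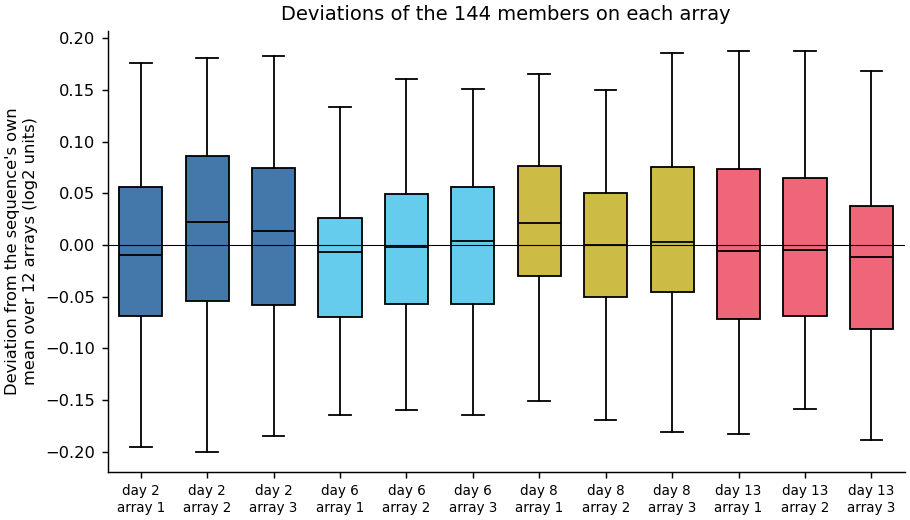
For each of the 12 arrays (x axis), the box gives the median and quartiles, and the whiskers the lowest and highest, of the deviation of 144 members from their own 12-array mean (log2 units, y axis). Medians lie between -0.012 and 0.022, and the boxes of days 2 and 13 are taller than those of day 6.

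Day means of a member differed by 0.144 log2 units between its highest and lowest day (median), and by 0.246 at most. The day of the highest mean was day 2 in 51 members, day 6 in 19, day 8 in 42 and day 13 in 32. The day of the lowest was day 2 in 37, day 6 in 37, day 8 in 31 and day 13 in 39. The most frequent profile, in 20 members, had its top day mean at day 2 and its bottom day mean at day 8. A top at day 2 with the bottom at day 6 followed with 18 members. A top at day 8 was paired with the bottom at day 2 in 17 members and with the bottom at day 13 in 17. Such profiles were not counted for the other sequences, so nothing particular to the members is read from them.

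The linear model of the limma package was fitted to all 12214 sequences, and a sequence was counted as called at a Benjamini-Hochberg adjusted p below 0.05. For the members, chosen on these same values, a call is a label of size against replicate spread and no test of a difference. The F-test over the 4 days called 16 of 144 members, where it called 82.2% of all sequences. Since the rule bounded these same differences, a low count among members follows from it and nothing is read from the gap. In the 6 comparisons between days, 102 members were called in none, 25 in 1, 13 in 2 and 4 in 3. The matching shares over all sequences were not counted, so nothing is read from these numbers either. The 4 called in 3 comparisons, which share arrays with each other, were paxillus_4852, paxillus_5053, paxillus_8586 and paxillus_966, of which paxillus_5053 was singled out after its values were seen.

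For day 13 against day 2, 16 members were called, where 65.8% of all sequences were. Of these 8 were higher, where 34.4% of all sequences were, and 8 lower, where 31.4% were. The called differences were between 0.152 and 0.23 log2 units in size. Over all members the median difference was -0.015, with 63 above and 81 below 0, and over all sequences it was 0.033. The median size of a difference, without its sign, was 0.075 for members, where the rule bounded it, and 0.401 for all sequences. The median standard error was 0.070 for members.

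paxillus_8113 and paxillus_8586 had the most negative differences between these days. paxillus_8113 (mean 12.66) read 12.77, 12.80 and 12.80 on the day 2 arrays, 12.70, 12.70 and 12.68 on those of day 6, 12.65, 12.62 and 12.52 on those of day 8, and 12.55, 12.61 and 12.53 on those of day 13. Its day means were lower at each later harvest, with days 8 and 13 overlapping. The 3 arrays of day 13 were all below the 3 of day 2, with a log2 difference of -0.23 ± 0.063 (SE). paxillus_8586 (mean 12.31) read 12.39, 12.42 and 12.47 on the day 2 arrays, 12.37, 12.32 and 12.44 on those of day 6, 12.22, 12.31 and 12.20 on those of day 8, and 12.21, 12.21 and 12.20 on those of day 13, a day 13 against day 2 difference of -0.22 ± 0.065. All 3 arrays of day 13 lay below the 3 of day 2 and the 3 of day 6.

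The most positive differences were those of paxillus_8229 and paxillus_966. paxillus_8229 (mean 13.41) read 13.21, 13.35 and 13.25 on the day 2 arrays, 13.42, 13.49 and 13.35 on those of day 6, 13.48, 13.48 and 13.40 on those of day 8, and 13.50, 13.49 and 13.44 on those of day 13, a difference of 0.21 ± 0.069. Its day 13 arrays lay above the 3 of day 2 and overlapped with days 6 and 8. paxillus_966 (mean 12.64) read 12.51, 12.52 and 12.45 on the day 2 arrays, 12.64, 12.64 and 12.75 on those of day 6, 12.62, 12.71 and 12.72 on those of day 8, and 12.64, 12.69 and 12.74 on those of day 13. Its day 2 arrays lay below the other 9, which overlapped with each other, and the day 13 against day 2 difference was 0.20 ± 0.067.

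The other comparisons called 2 to 19 members each. For day 8 against day 2, 19 members were called, where 59.4% of all sequences were, and for day 6 against day 2 it was 7, where 46.1% were. These comparisons and the one of day 13 share the day 2 arrays. For day 13 against day 6, 11 members were called, where 58.5% of all were, and for day 13 against day 8 it was 8, where 54.1% were. The step from day 6 to day 8 called 2 members, where 25.9% of all sequences were called. They were paxillus_4852, and paxillus_8619, named after its values were seen, with log2 differences of -0.19 ± 0.061 and 0.23 ± 0.063. With days 6 and 8 exchanged, the counts of 19 and 7 and of 11 and 8 change places.

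Across the 6 comparisons no member differed by more than 0.25 log2 units between day means, and no called difference was smaller than 0.152. The counts moved with the fit: with array weights the F-test called 53 members, with the replicate number as a block 9, and without replicate 3 of day 2 only 5. Shares of all sequences called under these fits were not counted, so it is not known whether calls moved over the whole array.

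**Figure D4:**
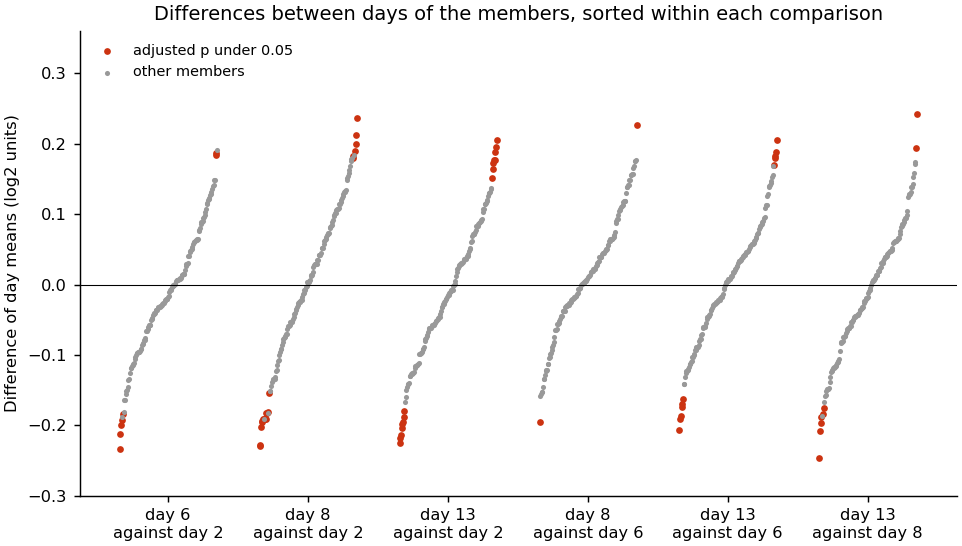
Each point is 1 of the 144 members, with the difference of its day means (log2 units, later day minus earlier day, y axis) sorted within each of the 6 comparisons (x axis); red points passed an adjusted p of 0.05 in limma. All differences lie within 0.25 of 0, and the called ones, 2 to 19 in each comparison, lie at the ends.

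Ratios between members give a view that does not depend on a single scaling factor of an array, because a factor common to all its values cancels. The equalising of distributions before deposit is not such a factor and remains in the ratios. Over the 10296 pairs of members, the SD of the log2 ratio over the 12 arrays had a median of 0.113 and ran from 0.031 to 0.200. For a single member, the mean of this SD over its 143 partners is the stability value used in work on reference genes. paxillus_5305 and paxillus_9375 again had the lowest values, 0.0856 and 0.0865, and paxillus_7618 and paxillus_10193 the highest, 0.133 and 0.133. Members with small ranges give small ratio SDs by construction, so the order of the first 2 is not independent of the rule.

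paxillus_7618 (mean 12.23) averaged 12.15 ± 0.076 at day 2 and 12.28 ± 0.11 at day 6, then 12.33 ± 0.062 at day 8 and 12.16 ± 0.079 at day 13 (SD, n = 3), high in the middle of the course. paxillus_10193 (mean 12.74) averaged 12.69 ± 0.074, 12.69 ± 0.085 and 12.70 ± 0.092 at days 2, 6 and 8 and 12.88 ± 0.032 at day 13, where its 3 arrays lay above the other 9. The pair with the most constant ratio was paxillus_5360 and paxillus_5367, of which paxillus_5367 was named after the values were seen. The log2 ratio of paxillus_5360 over it stayed between 1.73 and 1.83 on all 12 arrays. At the other end, the log2 ratio of paxillus_4852 over paxillus_7144, also named after its values were seen, ran from -0.86 to -0.30.

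The files do not say what the numbering of the sequences follows, so the members were looked at for neighbouring numbers. Of the 144, 14 formed 7 pairs of consecutive numbers, and no run was longer than 2. The first 4 of these pairs differed in how closely their members followed each other. paxillus_600 and paxillus_601 differed in mean level, at 13.86 and 13.17, and the log2 ratio of the first over the second ran from 0.52 to 0.86. paxillus_3308 and paxillus_3309 had nearly equal means, 12.90 and 12.92, but a ratio that ran from -0.22 to 0.15, wider than the range of paxillus_3308 itself, 0.151.

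paxillus_4835 and paxillus_4836 moved together. paxillus_4835 read 12.73, 12.92 and 12.72 on the day 2 arrays, 12.80, 12.84 and 12.71 on those of day 6, 12.79, 12.79 and 12.81 on those of day 8, and 12.83, 12.84 and 12.81 on those of day 13. paxillus_4836 read 12.33, 12.52 and 12.30 on the day 2 arrays, 12.33, 12.43 and 12.32 on those of day 6, 12.37, 12.29 and 12.34 on those of day 8, and 12.43, 12.34 and 12.38 on those of day 13. Both were highest on replicate 2 of day 2, and the SD of their log2 ratio was 0.042, against the median of 0.113 over all pairs. paxillus_4851 and paxillus_4852 differed by 0.71 in mean level, with a ratio SD of 0.098. The 259 other sequences at a number next to a member had a median range of 0.758, and the 123 of them in the same window of levels 0.675, where all other sequences of the window had 0.778.

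The rule was also applied with 1 day held back, to see which harvests removed candidates. The same limits were applied to 9 arrays of 3 days, and the chosen sequences were then read on the 3 arrays of the fourth day. Without day 13, 544 sequences were chosen, and 144 of them (26.5%) had a range below 0.3 once day 13 was added. Without day 2, 421 were chosen and 145 (34.4%) did so with it. Without day 8, 248 were chosen and 146 (58.9%) did so, and without day 6, 211 were chosen and 143 (67.8%) did so. Those that met the limit with the day added are, but for a few at the bounds of the mean, the 144 members over again, so only the number of candidates lost is described here. The middle harvests thus removed fewer candidates than the ends of the course. In a profile that only rises or only falls, the means of middle days cannot widen the span of day means. The order of the days can therefore be partly set by where a day lies in the course. The replicate spread of the window's other sequences, given above, was also wider at days 2 and 13 than at days 6 and 8. It does not follow the order of the 2 middle days. The median SD was 0.0684 at day 6 and 0.0679 at day 8, while 68 candidates were lost with day 6 and 102 with day 8. The part of each was not tested.

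The shift on the day left out went both ways. Relative to the mean of the 9 arrays used, day 13 was higher in 273 of its 544 sequences and lower in 271, and the median size of the shift without sign was 0.209. For day 2 the counts were 196 and 225, with 0.152, for day 8 they were 131 and 117, with 0.104, and for day 6 they were 96 and 115, with 0.0701. A shift of at least 1 log2 unit was seen in 7 of the 544 sequences at day 13, 1 up and 6 down, in 1 of the 421 at day 2, and in none of the 248 and 211 at days 8 and 6.

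The largest of these shifts belong to sequences that are not members and were named after their values were seen. paxillus_9015 read 12.46, 12.43 and 12.50 on the day 2 arrays, 12.44, 12.31 and 12.39 on those of day 6, 12.42, 12.44 and 12.44 on those of day 8, and 10.65, 11.22 and 10.95 on those of day 13. It stayed within 0.184 through days 2, 6 and 8 and was 2.80-fold lower at day 13. paxillus_9631 went the other way, with 13.36 ± 0.17 at day 13 (SD, n = 3), against a mean of 12.27 on its first 9 arrays, 2.13-fold higher at day 13. At the start of the course, paxillus_837 lay at 11.02 ± 0.11 on the day 2 arrays, against a mean of 12.64 on the 9 later ones, 3.08-fold lower at day 2.

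**Figure D5:**
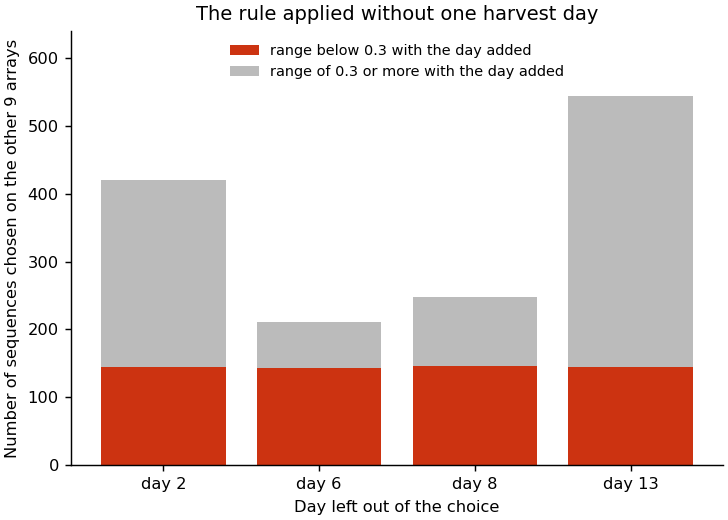
Bars give the number of sequences (y axis) that met the rule on 9 arrays when the day named below was left out (x axis); the red part had a range below 0.3 also with that day added. The red parts are 145, 143, 146 and 144 sequences high, while the grey parts range from 68 without day 6 to 400 without day 13.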

How the data were processed

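Expression was measured in 12 samples of mycelium, 3 per harvest day, on single-colour NimbleGen subarrays. The authors deposited log2 expression values made by RMA, according to the submitters' processing notes. RMA subtracts background, equalises the distributions of the arrays and reduces the probes of each sequence to 1 value. Its version is not given in the sources used here, and the log2 scale was inferred from the values. The series-wide table held the same values (largest difference 0). A further column labelled as a standard error was not used, since its meaning is not stated. Days and replicates came from the sample titles.

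The rule was applied to the mean and the range over 12 arrays. Day means were fitted for all 12214 sequences with limma 3.58.1 (R 4.3.3; lmFit, contrasts.fit, eBayes; 8 residual degrees of freedom, prior 4.23), with Benjamini-Hochberg adjustment within each comparison and no filter on dim sequences. Precision is limited by having 12 arrays. The p-values measure the spread between separate pooled cultures. The fit was also run on simulated data with independent noise and a change at day 13 in a small part of the sequences. In the real data the F-test called 82.2% of sequences, so that run does not show how well the adjusted p-values hold here. Ranges, ranks, coefficients of variation and log2 ratios were computed in Python 3.11.15. Alternatives were other scalings, limits of the rule, moderation, array weights, a replicate block, a stricter threshold, exchanged days and arrays left out. The members, lists and tests were chosen with earlier results of these data known. Sequences were named by fixed places: the 10 smallest ranges, both sides of each limit, the 2 largest rises and falls at day 13 against day 2, the extremes of ratio SD and of variance within days, and the first 4 runs of consecutive numbers. Others are marked as named after their values were seen.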

Additional observations from a re-analysis of the deposited data

How the results depend on the processing

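The count of members moved more under other range limits than under the further scalings tried. A range limit of 0.25 left 54 sequences and one of 0.35 gave 267, and a limit of 0.3 on day means gave 671. Centring arrays on the median of all sequences, quantile normalization and centring on the members gave 133, 150 and 140, of which 127, 122 and 128 were among the 144. These scalings were applied to values already equalised before deposit. They shifted an array by at most 0.0131, 0.0139 and 0.0219 log2 units, in the same order. Dependence on the scaling made before deposit was therefore not tested. Without any 1 array the count of members was 152 to 182. On 9 arrays it was 421, 211, 248 and 544 without days 2, 6, 8 and 13.

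With 1 array left out, counts of called members were less firm than the count of members, which always stayed within 1.5 times the original. Under the other settings both kinds of count moved. Taking both kinds together, 58 of 96 values with 1 array left out and 37 of 74 others lay within 1.5 times the original. The cause was not tested, and shares of all sequences called under the same settings were not counted. Calls are in the order F-test, day 6, day 8 and day 13 against day 2, day 8 against day 6, and day 13 against day 6 and day 8. At an adjusted p under 0.01 they were 0, 1, 3, 2, 0, 0 and 2 (unadjusted p under 0.05: 22, 15, 32, 20, 15, 15 and 15). With trend and robust settings they were 33, 15, 29, 22, 4, 14 and 14, and with array weights 53, 34, 51, 15, 26, 6 and 7. Fits of only the 6 arrays compared gave 3, 11, 0, 8, 2 and 3 without the F-test (5 for day 13 against day 2 at an unadjusted p under 0.05). Quantile normalization gave 13 for day 13 against day 8. Exchanging days 6 and 8 gave 19 for day 6 and 7 for day 8, each against day 2.

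The replicate block gave 9, 4, 15, 12, 1, 4 and 5. Replicate numbers showed no pairing that held across the days. Same-numbered arrays of different days had residual correlations from -0.302 to 0.633, the highest for replicate 2 of days 2 and 13, and 5 of 18 were over 0.1. Each array was also compared with the 3 arrays of every other day. In 12 of these 36 comparisons its own number correlated best, where 1 in 3 is the share without pairing.

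Leaving out 1 array gave 5 to 19, 2 to 11, 8 to 23, 6 to 15, 0 to 2, 3 to 11 and 2 to 10. The moves of over 1.5 times were these. The F-test gave 5 without replicate 3 of day 2, 7, 8 and 10 without replicates 1, 2 and 3 of day 6, and 8, 8 and 7 without those of day 8. Day 6 against day 2 gave 4 and 3 without replicates 2 and 3 of day 2, 2, 2 and 3 without those of day 6 and 11 without replicate 2 of day 13. Day 8 against day 2 gave 12 without replicate 3 of day 2 and 11, 8 and 9 without those of day 8. Day 13 against day 2 gave 6 without replicate 3 of day 2 and 9 and 8 without replicates 1 and 3 of day 13. Day 8 against day 6 gave 0, 1 and 0 without those of day 6 and 0, 1 and 0 without those of day 8 (3 to 9 at an unadjusted p under 0.05). Day 13 against day 6 gave 3, 6 and 4 without those of day 6, 5 without replicate 1 of day 8 and 7, 6 and 4 without those of day 13. Day 13 against day 8 gave 2, 3 and 2 without those of day 8 and 5 and 2 without replicates 1 and 3 of day 13.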

Other observations

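The members were unevenly placed along the sequence numbers of the array, a feature the rule did not use. Numbers above 10000 held 9 members among 3610 sequences (0.249%), and numbers up to 10000 held 135 among 8604 (1.57%). The level moved with this: 13.1% of sequences above 10000 and 39.5% of those up to 10000 had a mean from 12 to 14. Within that window of levels, members were 1.90% of 474 sequences above 10000 and 3.97% of 3397 up to 10000. In steps of 2000 numbers the share of members within the window was 2.45%, 2.30%, 5.37%, 5.03%, 3.96%, 2.20% and 0.901%, with the highest shares from 4001 to 8000. These shares rest on 20, 7, 36, 39, 33, 8 and 1 members, the last among 111 sequences. What the numbering follows is not given in the files, and the part of the level was not tested beyond these shares.

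Flat sequences were also found outside the window of levels. From 14 to 15, 32 of 258 sequences had a range below 0.3, and from 15 to 16 it was 4 of 15. Among dimmer sequences there were 2 in 548 from 8 to 9 and none from 5 to 8. Near the level of the random-sequence control there were 3 in 323 from 4 to 5 and 5 in 200 from 3 to 4.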
